A study of Mus musculus with 2 samples.

Results

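The regions described are the 500 tallest DNase-seq peaks that both mice shared away from annotated gene starts in the urinary bladder. DNase-seq reads where the enzyme DNase I cuts chromatin: a peak marks open DNA, its height grows with the number of cuts, and a footprint is a short protected stretch inside it where a bound protein may shield the bases. The tissue came from 2 female B6CASTF1/J mice aged 36 days, named replicate 1 and replicate 2 (animals 5 and 6 of the labels), each with 1 library. These animals are a first-generation cross of inbred strains, and whole tissue was used, so every peak sums over all cell types of the bladder. The series had 1 group, with no treated animal and no control, so all values below are descriptions without a test.

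Replicate 1 had 114881 autosomal peaks, of which 82258 overlapped a peak of replicate 2. The midpoint of 53990 of these lay more than 1 kb from every GENCODE M21 transcript start. These shared distal peaks were ranked by the mean of the heights in both animals, and ranks 1 to 500 are the members. Their values are set beside those of the next 500 ranks and of all shared distal peaks. The height of a peak is the authors' value, and the scale of that value is not given in the sources used here. Height chose the members, so their heights only describe them. Mean height ran between 5.49 and 43.7, with a median of 6.75, against a median of 0.858 over all 53990. The limit was a soft one: ranks 496 to 500 had mean heights between 5.49 and 5.51, and the first 5 outside had 5.48 to 5.49. The lists hold some nested rows. The members formed 497 separate stretches of genome, since 5 members overlapped another, namely ranks 38 and 70 and the rows inside Sin3a at ranks 147, 177 and 233.

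Open chromatin far from genes is usually read as enhancers, which raise transcription of a gene on the same chromosome, or as insulator sites bound by CTCF, the zinc finger protein that stops the loop-forming cohesin ring at the edges of chromatin domains. Other proteins open DNA in nearly every cell type. SP and KLF factors bind GC boxes of CpG-rich promoters. CREB binds the cyclic AMP response element, and NRF1 drives genes of mitochondrial function. RNA polymerase III is brought to tRNA genes by factors that sit on an internal element, the B box, and just upstream of the gene.

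The sequences that carry these results come from the GRCm38 genome. The first set holds the CTCF core, a 12-base consensus, in capitals with 14 bases on each side, in the 5 tallest members with 1 core outside exons, each read along the strand of the core. The peak of rank 65 also overlaps the tRNA gene n-TPagg4.
rank 22, chr5:114667707-114667746, minus strand, near Trpv4: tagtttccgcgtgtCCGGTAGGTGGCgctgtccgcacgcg
rank 38, chr7:73618501-73618540, minus strand, near Gm44738: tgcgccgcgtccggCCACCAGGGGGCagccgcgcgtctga
rank 47, chr9:107612821-107612860, minus strand, near Gnai2: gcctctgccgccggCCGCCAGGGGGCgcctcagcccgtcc
rank 65, chr14:51064947-51064986, minus strand, near Olfr750: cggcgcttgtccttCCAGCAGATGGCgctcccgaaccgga
rank 68, chr17:29095622-29095661, minus strand, near AC167363.2: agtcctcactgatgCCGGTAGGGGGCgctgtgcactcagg

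The second set holds CREB and NRF1 sites. In every member that held one, a site shared at least 1 base with a footprint in both animals. Footprints covered 39.3% of member bases in replicate 1 and 33.1% in replicate 2, and the next ranks were not compared for these sites. Capitals mark the site, TGACGTCA for CREB and GCGCATGCG for NRF1, with 15 bases on each side on the plus strand. The NRF1 letters overlap their own reverse complement, so a run of 10 capitals holds a match on each strand.
CREB, rank 9, chr19:53314315-53314352, intron of Mxi1: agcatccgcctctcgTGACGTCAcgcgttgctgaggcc
CREB, rank 17, chr11:69097187-69097224, near Per1: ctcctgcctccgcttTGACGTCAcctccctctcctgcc
CREB, rank 28, chr1:180387624-180387661, near Itpkb: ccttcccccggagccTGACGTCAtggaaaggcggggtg
CREB, rank 47, chr9:107612767-107612804, near Gnai2: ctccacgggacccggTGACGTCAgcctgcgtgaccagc
NRF1, rank 15, chr5:142367383-142367421, near Foxk1: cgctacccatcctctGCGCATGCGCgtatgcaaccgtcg
NRF1, rank 21, chr7:38084881-38084919, near Ccne1: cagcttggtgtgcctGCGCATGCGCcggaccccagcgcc
NRF1, rank 37, chr7:35234919-35234957, beside the tRNA gene n-TTagt9: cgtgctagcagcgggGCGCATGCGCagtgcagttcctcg

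The third set gives tRNA genes that the tallest members overlap, whole and on their own strand. Capitals mark the B box, searched as GTTCGANNC on that strand. The gene n-TRccg1 runs past the end of its peak, and its B box is not wholly within the peak.
n-TNgtt14, rank 16, chr5:149229001-149229074, minus strand: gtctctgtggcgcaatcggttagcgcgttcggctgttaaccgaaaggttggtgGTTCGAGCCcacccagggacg
n-TRccg1, rank 29, chr11:107012866-107012938, plus strand: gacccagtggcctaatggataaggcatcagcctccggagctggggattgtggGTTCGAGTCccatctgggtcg
n-TTagt9, rank 37, chr7:35234770-35234843, minus strand: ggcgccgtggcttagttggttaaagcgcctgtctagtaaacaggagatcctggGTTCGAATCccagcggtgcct

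The fourth set shows that some of the tallest members are copies of 1 sequence. Ranks 3 and 6 lie on different chromosomes and share 151 bases that differ at 1 base, in capitals. The last 3 lines give 30 bases of ranks 1, 3 and 6 in 1 orientation, again with the differing base in capitals.
rank 3, chr6:49236467-49236617, plus strand: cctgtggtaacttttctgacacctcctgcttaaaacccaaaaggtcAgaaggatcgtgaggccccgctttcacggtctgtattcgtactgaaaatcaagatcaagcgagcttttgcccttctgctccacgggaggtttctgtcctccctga
rank 6, chr12:78350950-78351100, minus strand: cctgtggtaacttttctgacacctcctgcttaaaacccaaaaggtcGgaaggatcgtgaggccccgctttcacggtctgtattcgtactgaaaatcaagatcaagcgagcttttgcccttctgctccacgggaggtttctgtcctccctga
rank 1, chr9:123461901-123461930, plus strand: gcctcacgatccttcTgaccttttgggttt
rank 3, chr6:49236499-49236528, minus strand: gcctcacgatccttcTgaccttttgggttt
rank 6, chr12:78351039-78351068, plus strand: gcctcacgatccttcCgaccttttgggttt

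The 10 tallest members were a mixture of repeated sequence and gene-linked regions. Rank 1, in the UTR of Lars2, which encodes the mitochondrial leucyl-tRNA synthetase, had heights of 40.2 in replicate 1 and 47.2 in replicate 2. Rank 2, in an intron of Il31ra, a receptor subunit for interleukin 31, had 37.7 and 40.8 in replicates 1 and 2. Rank 3, an intergenic peak on chr6 between Gm43980 and Igf2bp3, had 39.7 and 36.0 in replicates 1 and 2. Rank 4, an intergenic peak on chr3 nearest to Gm25352, had 32.03 in replicate 1 and 41.1 in replicate 2. All of ranks 1 to 4 had other copies in the genome and ranks 1, 2 and 4 were higher in replicate 2. Rank 5, chr15:99735661-99735920 in a UTR of Cers5, had 33.2 and 32.6 in replicates 1 and 2. It had no other copy, no CpG, and footprints over only 16 and 13 of its bases in those animals, against medians of 83.5 and 81 bases over all members.

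The next heights were lower. Rank 6, in an intron of Gphn, had 16.2 and 19.98 in replicates 1 and 2. Rank 7 lay 1352 bp from the start of Nr1d1, a repressor of the circadian clock, and had 22.8 and 11.5. Rank 8, in a UTR of Ubqln1, a ubiquitin-binding shuttle protein, had 18.5 and 14.98. Rank 9 lay 1265 bp inside Mxi1, a MYC antagonist, with 18.7 in replicate 1 and 12.5 in replicate 2, and rank 10, inside Jarid2, a cofactor of the Polycomb complex, had 16.7 and 13.6. Of these 10, ranks 1, 2, 3, 4 and 10 had other copies by the rule given below. Rank 6 did not, although it shares the 151 bases shown above with rank 3.

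Replicate 1 was higher at nearly every member, as it was in the next 500 ranks. The median height of the members was 8.19 in replicate 1 and 5.35 in replicate 2, and the log2 ratio of replicate 1 to replicate 2 had a median of 0.66 (SD 0.27 over the 500 members). Over all shared distal peaks the same ratio had a median of 0.36, and over the next 500 ranks, up to rank 1000, it was 0.58. Thus 490 members (98%) were higher in replicate 1 and 10 in replicate 2, against 99% of the next 500 ranks and 81.1% of all that were higher in replicate 1. A difference of 2-fold or less was found in 470 members (94%), near the 94.4% of the next 500 ranks and the 93.4% of all. With 1 library per animal, an animal and its library cannot be told apart. The extremes were Mroh2a (rank 122) with 12.02 in replicate 1 and 4.28 in replicate 2, Gm19327 (rank 317) with 9.24 and 3.43, and Id1 (rank 83), an inhibitor of bHLH factors, with 13.3 and 5.10. At the other end, D130009I18Rik (rank 425) had 4.90 in replicate 1 and 6.80 in replicate 2.

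Ranking each animal alone gave overlapping lists. Of the 500 tallest in replicate 1, 402 (80.4%) were among the 500 tallest in replicate 2, and 479 were among its 1000 tallest. The 500 chosen on replicate 1 had a median height of 5.30 in replicate 2, which their choice did not use, against 0.756 for all shared distal peaks. Those chosen on replicate 2 had a median of 8.04 in replicate 1, against 0.963 for all. Among the members, 461 were in the top 500 of replicate 1 and 441 in that of replicate 2.

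**Figure D1:**
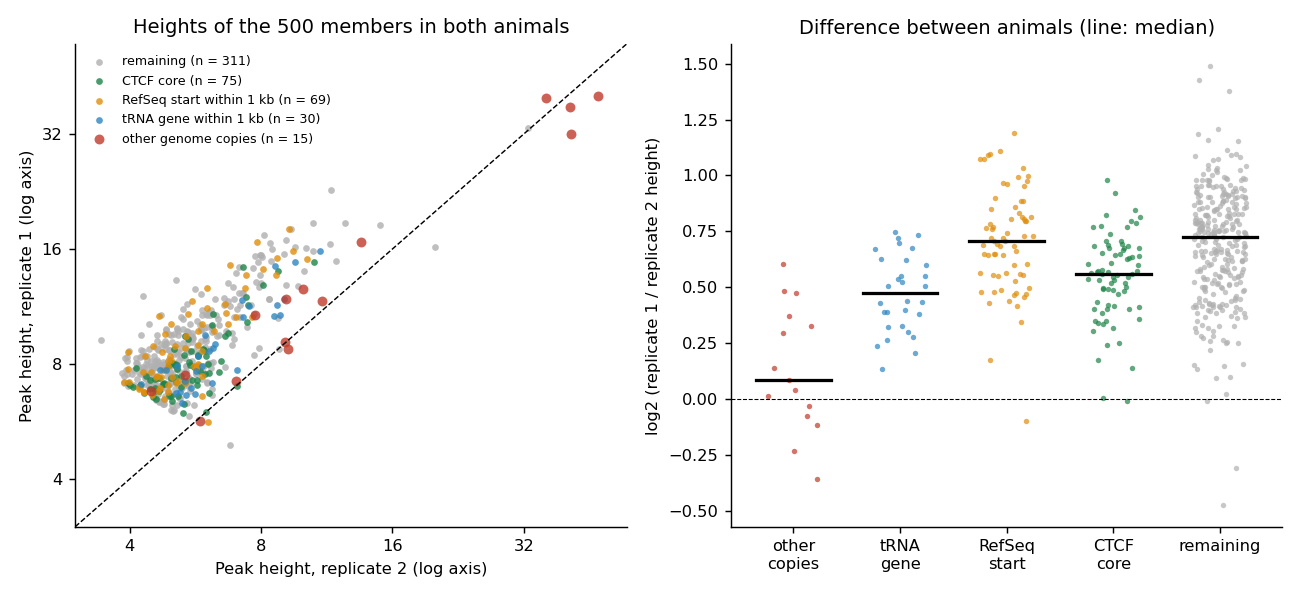
Heights of the 500 members in replicate 1 (vertical) and replicate 2 (horizontal), both on log axes with the line of equal height dashed, and at right the log2 ratio of replicate 1 to replicate 2 by class with the median as a bar; each point is 1 member. Most points lie above the line, whereas the 15 members with other genome copies spread around it, with a median ratio of 0.08.

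To describe the members further, each was put in the first of 5 classes that applied, an order set after their values were seen. Another copy in the genome was found for 15 members, a RefSeq tRNA gene start within 1 kb for 30, another RefSeq start within 1 kb for 69, a CTCF core for 75, and 311 had none of these. The repeated members stood apart in balance between the animals: their log2 ratio had a median of 0.08, against 0.47 for the tRNA class, 0.71 for the RefSeq start class, 0.56 for the CTCF class and 0.72 for the remainder.

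Members with other copies of their sequence (at least 90% identity over at least 80% of the length) were 15 of 500, or 3%. This share was near the background, 3.37% of every 100th rank beyond 500 (18 of 534), and above the 1% of the next 500 ranks. The copies were gathered at the top: 5 of the 10 tallest and 11 of the 100 tallest had one. Of these 15 members, 5 were higher in replicate 2, against 5 of the 485 without another copy. Whether reads of other copies add to these heights was not tested. The most copied were Gm11168 (rank 451) with 185 copies and Gm10722 (rank 41) with 164, both near the start of the assembled part of chr9. All bases of both were repeat-masked. Gm25352 (rank 4) had 15 copies, Il31ra (rank 2) had 7, and Lars2 (rank 1) and Jarid2 (rank 10) had 4 each, with at most 12.4% of bases masked.

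The shared stretch shown for ranks 3 and 6 was part of a wider pattern. Leaving out tRNA genes and rows that overlap, 20 members in 9 families shared a stretch with another member at 80% identity or more. Ranks 1, 3, 6 and 99 formed the largest family: 79 bases of ranks 1 and 3 were 98.7% identical, 151 bases of ranks 3 and 6 were 99.3% identical, and 125 bases of ranks 6 and 99 were 96.8% identical. Rank 6 had no copy by the rule above, since these stretches covered too little of its length. Ranks 2 and 4 shared 36 bases at 97.2% identity, ranks 39 and 85 shared 159 bases at 94.97%, and ranks 10 and 425 shared 91 bases at 95.6%. In all, 7 of the 20 were higher in replicate 2, and their log2 ratio had a median of 0.20. Among the other 480 members 3 were higher in replicate 2, and the median was 0.67. Searched against the RefSeq ribosomal RNA genes of the reference, rank 466 matched Rn4.5s over 95 bases at 98.9% identity, and rank 4 matched the mitochondrial mt-Rnr2 over 71 bases at 73.2%. No full nuclear large-subunit ribosomal RNA gene was searched.

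Some members lay at tRNA genes, which RNA polymerase III transcribes. A RefSeq tRNA start lay within 1 kb of the midpoint of 30 members (6%), against 20 (4%) of the next 500 ranks and 0.400% of all shared distal peaks. The GENCODE annotation that defined distal holds no nuclear tRNA gene, so these peaks counted as distal by construction. In 25 of the 30 the peak overlapped the tRNA gene, and the genes, all different, had 13 different amino acid letters in their names. The tallest was at n-TNgtt14, an asparagine tRNA (rank 16), with heights of 15.8 in replicate 1 and 10.9 in replicate 2. Next came n-TRccg1 for arginine (rank 29) with 14.8 and 9.56 in replicates 1 and 2, and n-TTagt9 for threonine (rank 37) with 14.4 and 8.60. All 25 were higher in replicate 1, as were 98% of all members. Of 386 autosomal RefSeq tRNA genes, 183 overlapped peaks of both animals and 138 overlapped a shared distal peak.

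These peaks extended upstream of the gene. In all 25, more of the peak lay before the tRNA than after it: the peak began 77 to 195 bp upstream, with a median of 138 bp, and ended a median of 9 bp past the gene. Footprints marked the same places in both animals. In the window 45 to 25 bases upstream of the gene, where the initiation factor TFIIIB is known to bind, 24 of 25 genes had a footprint in replicate 1 and 24 of 25 in replicate 2. In the window 50 to 65 bases past the first base of the gene, 25 of 25 had one in replicate 1 and 22 of 25 in replicate 2. That window is set by distance, and the B box lies beyond it in the longest genes. Between 15 and 30 bases past the first base none of the 25 had a footprint in either animal. The 113 tRNA genes in other shared distal peaks had footprints at the same places. Between 15 and 30 bases past the first base, 7 (6.19%) had one in replicate 1 and 3 (2.65%) in replicate 2. Upstream, 80 (70.8%) had a footprint in replicate 1 and 86 (76.1%) in replicate 2. In the window 50 to 65 bases past the first base 98 (86.7%) had one in replicate 1 and 92 (81.4%) in replicate 2. The B box itself was found by its letters in 20 of the 25 genes, and in 17 of these it was under a footprint in both animals.

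**Figure D2:**
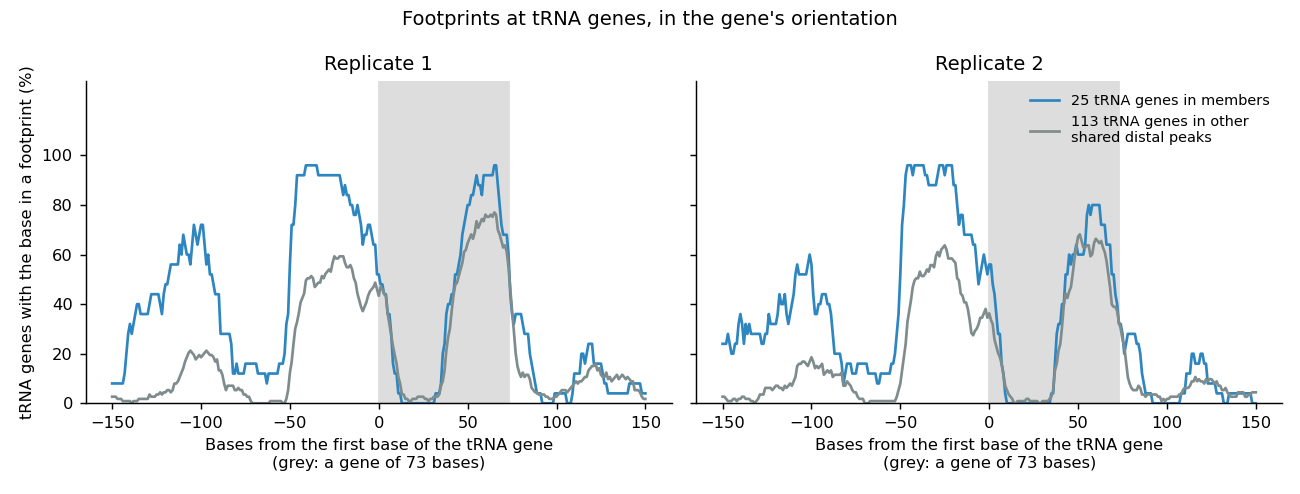
Share of tRNA genes (vertical, percent) with each base in a footprint, by distance in bases from the first base of the gene along its strand, for the 25 genes in members and the 113 in other shared distal peaks; the grey band is a gene of 73 bases. Both animals show a block upstream and a block in the later part of the gene, with a gap between 15 and 30 bases in which none of the 25 genes has a footprint.

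Some members counted as distal by GENCODE lay at starts that RefSeq annotates. RefSeq placed a transcript start of any kind within 1 kb of 100 members (20%), against 12.2% of the next 500 ranks and 5.09% of all shared distal peaks. Of the 69 in the RefSeq start class, 41 were nearest to an mRNA start and 26 to a long noncoding RNA start. The tallest were at D130051D11Rik (rank 14), with heights of 18.1 in replicate 1 and 9.27 in replicate 2, at Prdm2 (rank 23), a zinc finger methyltransferase gene, with 15.8 and 9.45, and at the noncoding Gm38882 (rank 24) with 15.02 and 10.2. By GENCODE, the nearest start was a median of 5152 bp away, against 6172 bp in the next 500 ranks and 10996 bp for all shared distal peaks. Between 1 and 2 kb lay 105 members (21%), against 17.6% of the next 500 ranks and 10.4% of all. Intergenic members numbered 270 (54%), close to the 52.2% of the next 500 ranks, against 43.8% of all. Intronic ones numbered 171 (34.2%), against 41% of the next 500 ranks and 49.7% of all. UTRs held 27 (5.4%, against 3% and 2.11%) and noncoding exons 19 (3.8%, against 1.8% and 1.97%). Coding exons held 13 (2.6%), near the 2% of the next 500 ranks and the 2.45% of all.

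The members were rich in G, C and CpG. The GC content had a median of 60.5% in members, 57.5% in the next 500 ranks and 52.2% in all. CpG pairs, which are depleted in most of the genome and kept in CpG islands, occurred at a median of 0.609 of the number that the C and G content predicts, against 0.403 in the next 500 ranks and 0.244 over all. A ratio above 0.6 was found in 257 members (51.4%), against 28.8% of the next 500 ranks and 7.44% of all shared distal peaks. Of these 257, 77 had a RefSeq start within 1 kb. The other 243 members, with fewer CpG pairs, had one in 23 cases, and 110 of them (45.3%) were intronic. The replicate 1 peak had a median length of 200 bp in members, 200 bp in the next 500 ranks and 190 bp in all, and the replicate 2 peak had 240, 220 and 200 bp in that order. By the replicate 1 peak the narrowest members were Aida (rank 201) with 60 bp, and Prrc2b (rank 198) and Junb (rank 421) with 100 bp each. Their replicate 2 peaks were 360, 360 and 460 bp long. The continuous stretch at a false discovery rate of 0.05 or less around it had a median of 667 bp in replicate 1 and 799 bp in replicate 2, against 483 and 588 bp in the next 500 ranks and 270 and 274 bp over all. That stretch is drawn from the same cuts as the height.

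Each site was searched on both strands in the replicate 1 peak, and a match describes letters, not binding. The GC box (GGGCGGG) was in 146 members (29.2%), 80 of the next 500 ranks (16%) and 5.39% of all shared distal peaks. CREB sites were in 19 members (3.8%), 1.2% of the next 500 ranks and 0.422% of all, and NRF1 sites in 16 (3.2%), 1.2% of the next 500 ranks and 0.230% of all. ETS sites (CCGGAAG) were in 32 (6.4%), 4.4% of the next 500 ranks and 1.83% of all. NF-Y sites (CCAATCAG) were in 14 (2.8%), close to the 2.4% of the next 500 ranks, and in 0.952% of all. The B box was in 19 (3.8%), close to the 3% of the next 500 ranks, and in 0.411% of all. AP-1, NFI and TEAD factors act at enhancers of many tissues, and their sites were less frequent in members than over all. AP-1 sites (TGANTCA) were in 52 members (10.4%), 10.4% of the next 500 ranks and 13.5% of all. TEAD sites (CATTCCA) were in 12 (2.4%), 2.4% of the next 500 ranks and 4.26% of all, so neither set the members apart from the next ranks. NFI sites (TTGGCA) were in 59 (11.8%), 16.6% of the next 500 ranks and 21.0% of all. The E-box CAGCTG was in 19.8% of members, 21% of the next 500 ranks and 20.2% of all. The GC content of the peaks differed as given above, and its part in these shares was not tested.

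Footprints, which the rule did not use, covered more of the members than of all shared distal peaks, and the next 500 ranks were close to the members. All 500 had at least 1 footprint in each animal, against 99.8% of the next 500 ranks and 77.1% of all shared distal peaks with one in both animals. For this reason no member without a footprint can be named. The median was 4 footprints in each animal over members and over the next 500 ranks, against 2 over all. They covered 39.3% of the member bases in replicate 1 and 33.1% in replicate 2, against 34.9% and 27.97% in the next 500 ranks and 15.3% and 11.2% over all. Footprints are called from the same cuts as the peaks, and the part of peak height in these differences was not tested. Ordered by the lower count of both animals, the fewest footprint bases were at Aida (rank 201), with 7 and 57 bases in replicates 1 and 2, at Acvrl1 (rank 87), with 10 and 53, and at Pisd-ps1 (rank 93), with 12 and 18. The lowest count in replicate 2 was the 13 bases of rank 5. In the same order, the most were in the member widest in replicate 1, chr9:57073001-57073860 in an intron of Sin3a (rank 147), a scaffold of histone deacetylase complexes, with 275 bases in replicate 1 and 254 in replicate 2 over 860 bp. Next came rank 38 near Gm44738 with 203 and 198, and rank 21 near Ccne1, the cyclin E1 gene, with 169 and 185.

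Sites of different factors overlapped footprints to different degrees. A site counted when at least 1 of its bases lay in a footprint in both animals. Footprints covered 39.3% of member bases in replicate 1 and 33.1% in replicate 2. Whole cover of a site was measured only for the CTCF core. All 19 members with a CREB site and all 16 with an NRF1 site had a site in a footprint in both animals, against 53.5% and 66.1% of all shared distal peaks with the same site. The same held for 82 of 83 CTCF core members (98.8%), against 85.6% of all. For this site alone the next 500 ranks were compared, and they were close at 97.6%. A site overlapped a footprint in both animals in 117 of 146 members with a GC box (80.1%), against 33.8% of all. So it did in 7 of 8 with an RFX X-box (GTTGCCATG), against 41.3%, and in 5 of 6 with a YY1 site (AAGATGGCG), against 59.1%. In contrast, 15 of 52 members with an AP-1 site (28.8%) had one there, against 10.3% of all. A forkhead site (TGTTTAC) was under a footprint in 1 of 17 members, against 3.48% of all, and a GATA site (AGATAAG) in 0 of 5, against 5.50% of all.

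**Figure D3:**
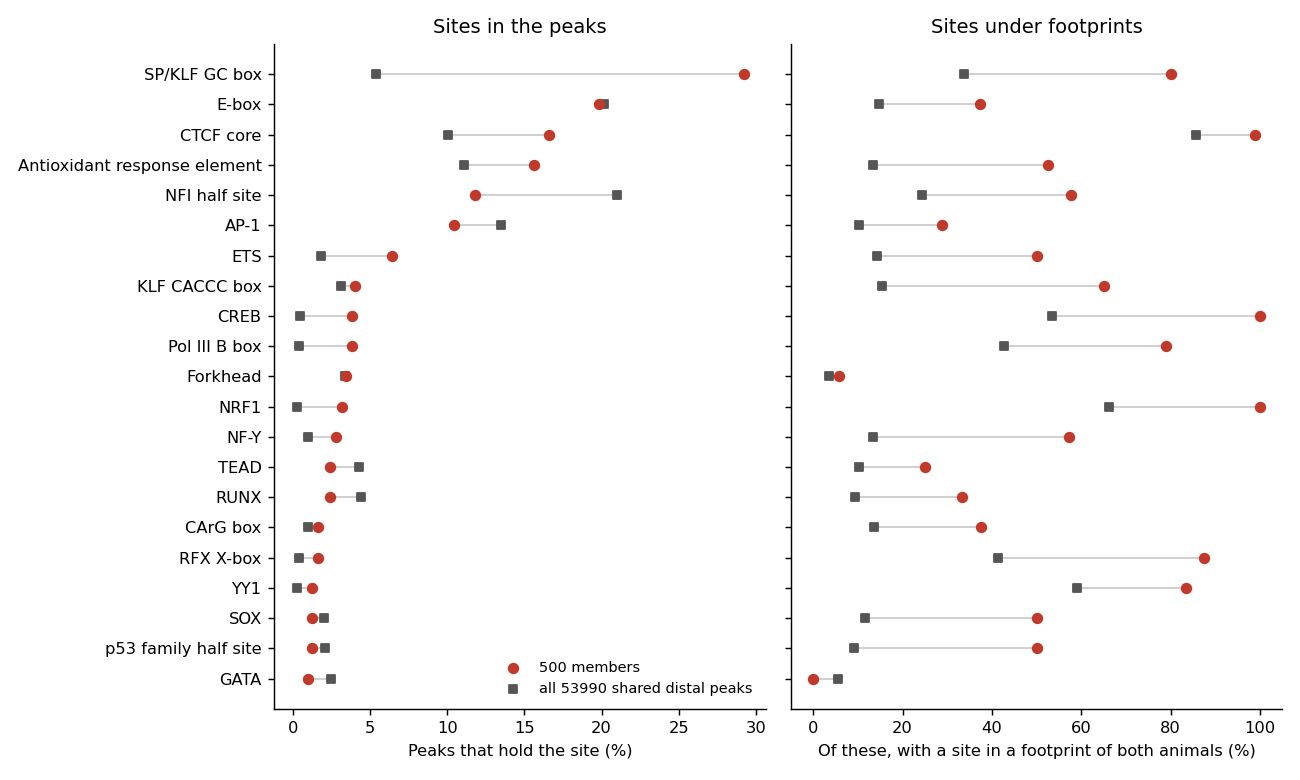
Share of the 500 members (circles) and of all 53990 shared distal peaks (squares) that hold each site, at left, in percent. At right is the share of those peaks in which a site shares at least 1 base with a footprint in both animals. Only sites present in at least 5 members are drawn. The GC box shows the widest gap at left (29.2% against 5.39%), and CREB and NRF1 reach 100% at right.

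The CTCF core was less frequent in the members than just below them. The core was in 83 members (16.6%), below the 123 of the next 500 ranks (24.6%) and above the 10% of all shared distal peaks (5413 of 53990). By bins of rank it peaked at 25.5% in ranks 1001 to 2000 and was 4.53% in ranks 40001 to 53990. With 1 mismatch allowed the shares were 41.6% of members, 52% of the next 500 ranks and 27.6% of all. The GC box, the CpG ratio and RefSeq starts were instead highest in the members and lower in the next 500 ranks. The tallest CTCF core member was rank 22 near Trpv4, an ion channel gene, with heights of 14.8 in replicate 1 and 10.6 in replicate 2. Next were rank 38 near Gm44738 with 14.03 and 8.73, and rank 47 near Gnai2, a G protein subunit, with 14.4 and 7.29.

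**Figure D4:**
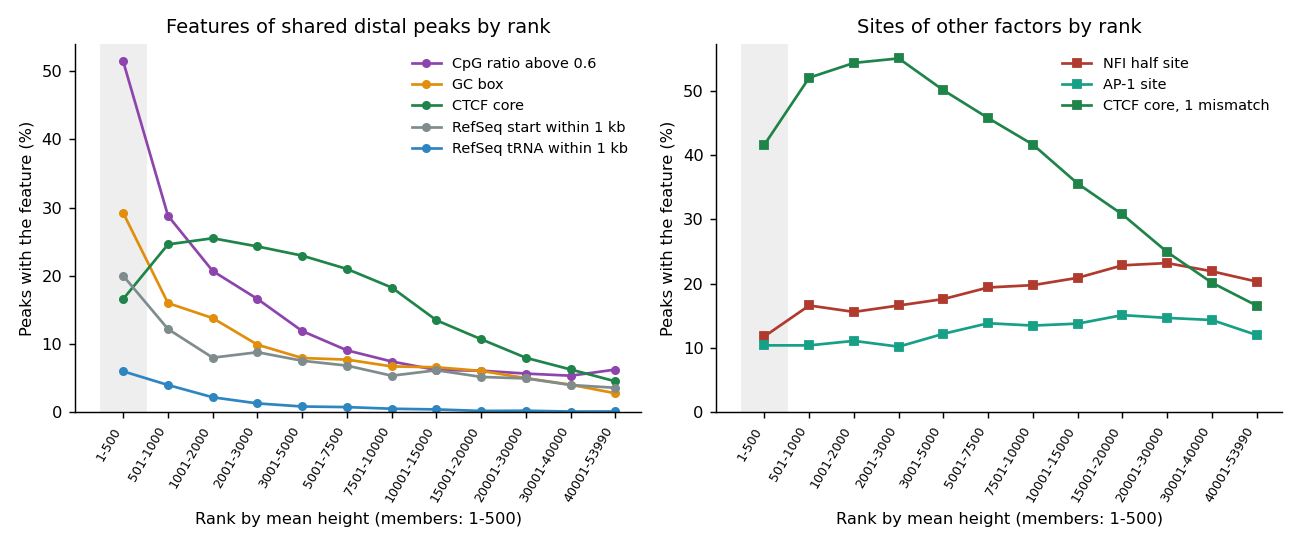
Share of shared distal peaks with each feature (vertical, percent) by bins of rank, with the members (ranks 1 to 500) in the grey band. CpG-rich peaks, GC boxes, RefSeq starts and tRNA genes are highest in the members, whereas the CTCF core peaks at 25.5% in ranks 1001 to 2000.

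The footprints at the core extended further to its 3′ side. The core was less central in members: it lay within 50 bp of the peak midpoint in 73 of 83 (88.0%), against 93.5% of core peaks of the next 500 ranks and 96.5% of all core peaks. Within 20 bp it lay in 47 (56.6%), against 68.3% in the next 500 ranks and 76.0% over all. A footprint covered the whole core in 79 of 83 members (95.2%) in each animal. In the next 500 ranks the shares were near these, 95.1% in replicate 1 and 95.9% in replicate 2, and over all core peaks they were 77.1% and 70.4%. The footprint began a median of 6 bases before the core in each animal. It ended a median of 12 bases after the core in replicate 1 and 11 in replicate 2, and was 32 and 31 bases long. In the next 500 ranks the lengths were alike, 33 and 32 bases, and over all core peaks they were 28 and 26 bases. A second protected block lay on the 5′ side: 15 bases before the core, 50.6% of member cores were in a footprint in replicate 1 and 54.2% in replicate 2. The next 500 ranks had 52.0% and 47.2% there, and all core peaks 31.4% and 29.9%.

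**Figure D5:**
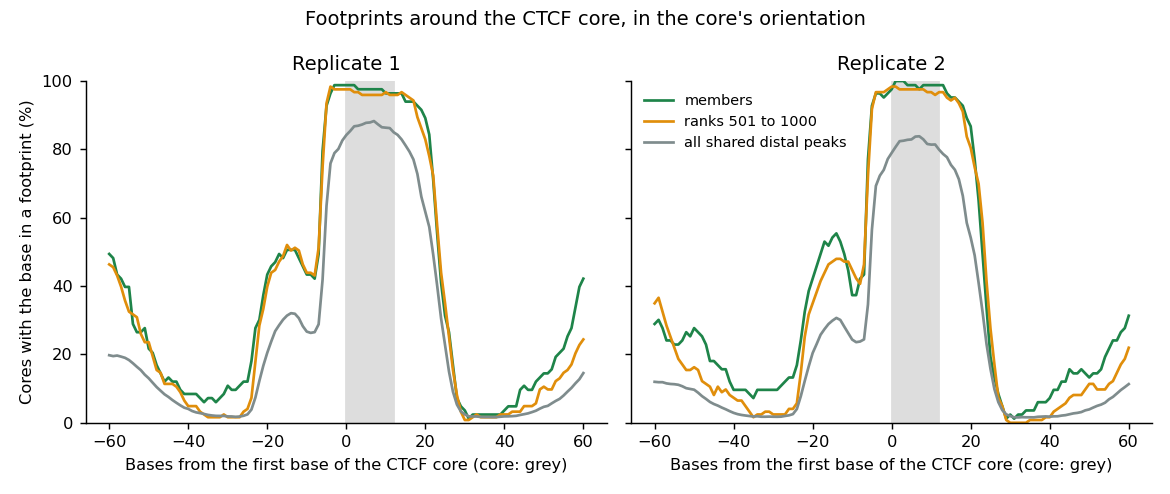
Share of CTCF cores (vertical, percent) with each base in a footprint, by distance in bases from the first base of the core and along its strand, in replicate 1 and replicate 2; the grey band is the 12-base core. The curves of the 83 members and of the 123 core peaks of the next 500 ranks run together near 100% over the core, and that of all core peaks is lower; a smaller block precedes the core.

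CTCF loops are known to join cores that point at each other. Among the 65 pairs of neighbouring core members on a chromosome, 16 (24.6%) faced each other, 17 (26.2%) pointed apart and 32 (49.2%) ran the same way. The median distance was 12.4 Mb and 11 pairs were closer than 1 Mb, of which 3 faced each other. Neighbours here are members only, 83 of the 5413 core peaks, so other core peaks can lie between them. Pairs among the other core peaks were not counted, so these shares have no comparison. Looping was not tested. Of the 83 members, 37 had the core on the plus strand.

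Marker genes of bladder cell types were rarely the nearest gene, among members as among all shared distal peaks. Of 27 urothelial genes 1 had a member (0.2% of members, near the 0.152% of all shared distal peaks): Gata3, a transcription factor of the urothelium (rank 258), with heights of 8.75 in replicate 1 and 4.65 in replicate 2. None of the smooth muscle, fibroblast, endothelial, leukocyte or neuron and glia genes was the nearest gene of a member. Their shares of all shared distal peaks were 0.0963%, 0.119%, 0.0741%, 0.0241% and 0.0574% in that order, so low that 0 of 500 members shows no difference. Promoters of the listed genes were also examined: 24 of 27 urothelial and 18 of 19 smooth muscle genes had a shared peak within 1 kb of a start. So did 16 of 16 fibroblast, 10 of 13 endothelial, 7 of 8 neuron and glia and 4 of 12 leukocyte genes, all autosomal, against 68.0% of protein-coding genes. Lists that do not mark a cell type were open too, with 13 of 13 immediate early and 29 of 39 Hox genes. These promoter shares therefore do not identify cell types. The lists are short, and the nearest gene need not be the one regulated.

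Immediate early genes, which switch on within minutes of a stimulus, were the list most often nearest: 6 members (1.2%), against 0.0833% of all shared distal peaks. The next ranks were not compared for the gene lists, so this share may not be particular to the members. Fos, a subunit of the AP-1 factor, had members at ranks 88 and 142, with heights of 11.3 and 9.47 in replicate 1 and 6.80 and 6.33 in replicate 2. The first of these, 18519 bp before the start of Fos, lies in the VISTA enhancer mm260. Ier2 (rank 195) had 9.09 and 5.30 in replicates 1 and 2, and Fosb (rank 209), in the VISTA enhancer mm567, had 9.52 and 4.62. Egr1 (rank 240), a zinc finger factor, had 8.48 and 5.15, and Junb (rank 421), a partner of Fos, had 6.53 and 5.21. All 6 were higher in replicate 1, as were 98% of all members. Of the Hox genes, Hoxc8, a patterning gene, was nearest to rank 391, with heights of 7.09 in replicate 1 and 4.89 in replicate 2. The 39 Hox genes had 1 member (0.2%), against 0.0315% of all shared distal peaks.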

How the data were processed

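Peak lists, footprints and cut-rate lists of DNase-seq from 2 mice on mm10 (GRCm38) were used. Per the deposited descriptions, the authors called them in each animal separately. Peak height is a signal value that the authors deposited; its scale, the aligner and the peak caller were not given in the sources used here. The depth is unknown, since the files hold no read counts. The authors' footprints carry a constant p-value threshold of 0.01, and their deposited cut-rate lists a false discovery rate of at most 0.05, which is a q-value. The peak list with more rows was used, 117773 peaks in replicate 1 and 102671 in replicate 2. Sex chromosomes were left out. Peaks overlapped with at least 1 bp. Genes came from GENCODE M21 and RefSeq, and copies from blastn 2.17.0 (word size 16). Consensus letters of 27 sites were searched with Python 3.11.15, numpy 2.4.6 and pandas 2.3.3, and the code was tested on simulated lists. Motif, annotation and footprint alternatives, other rank limits and single-animal rankings were tried. Regions named were the 10 tallest, the extremes of copies, footprint bases, width and animal difference, the limit, and listed genes. Members, lists and classes were chosen with earlier results of these data known. Intervals for shares are exact binomial at 95% and cover counting error only. The result of 1 listed gene is not reported here.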

Additional observations from a re-analysis of the deposited data

How the results depend on the processing

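With 1 library per animal, no SD can be given within an animal. An alternative counts as moved when it left the 95% interval of the value reported. Of 116 alternatives over 12 results, 94 stayed within and 22 moved. Only the log2 ratio could change sign, and it did not. Every alternative took it from unscaled heights, and 98% of members were higher in replicate 1. A change of sign thus had little room, and the effect of scaling on the ratio was not tested. Some alternatives had little or no room to move. The smaller peak list kept the same 500 members and gave the same values, and counting overlapping members once left 497. Keeping 250 members gave a CTCF core share of 12.8%, a GC box share of 34.8%, a CpG-rich share of 58.8%, a median GC content of 62.0%, a log2 ratio of 0.71, and 100% of cores under a footprint in both animals. Keeping 1000 gave 20.6%, 22.6%, 40.1%, 58.9% and 0.62 for the first 5 of these, and 16.1% with a RefSeq start. A limit of 2 kb to a start gave a median distance of 7544 bp, 58.8% intergenic, 45.4% CpG-rich and 16.4% with a RefSeq start. Ranking on 1 animal gave a log2 ratio between 0.57 and 0.71. The CTCF core share was 41.6% with 1 mismatch. Cores wholly covered in both animals were 92.8%. The share with copies was 1.6% at 95% identity over 90% of the length and 6% at 80% over 50%. The GC box, CpG and RefSeq results, and counting overlapping members once, were added after seeing the data. Ranking on heights scaled to the median of each animal kept 494 members, and this scaling served the ranking only. No paired analysis was possible because there is 1 group.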

Other observations

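Some genes had more than 1 member nearest to them. With a replicate 2 peak counted once, 53 protein-coding genes had several, 112 members in all, out of 436 genes that were the nearest protein-coding gene of a member. Ptma, which encodes the nuclear protein prothymosin alpha, had 5 at ranks 12, 19, 205, 281 and 389, and 3 of them, ranks 205, 281 and 389, fell in the CTCF class. Kdm6b, a histone demethylase gene, had 3 at ranks 247, 251 and 375, all within 1 kb of a RefSeq start. Within 5 kb of another member, measured between midpoints and leaving out overlapping rows, lay 48 members. Counts of these kinds were not set beside other ranks, so they describe the members only.

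On some chromosomes the share of members differed from that of all shared distal peaks, and the next ranks were not compared. Others were near it, such as chromosome 2 (7.4%, against 7.78%) and chromosome 6 (5.8%, against 5.68%). Chromosome 11 held 54 (10.8%, against 7.46% of all shared distal peaks) and chromosome 7 held 49 (9.8%, against 5.78%), whereas chromosome 3 held 15 (3%, against 5.03%). RefSeq regulatory elements overlapped 11 members (2.2%), against 2% of the next 500 ranks and 0.578% of all, and 10 of the 11 are VISTA enhancers.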
